A study of Mus musculus with 15 samples.

Results

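Heart muscle pixels were selected on the counts of 7 genes of the cardiac contractile apparatus in spatially barcoded sections of mouse embryos, and there were 1384 of them among 13139 tissue pixels in 9 libraries. A pixel was chosen by 3 conditions: a total count of at least 0.1 of the 95th percentile of its library (a tissue pixel), at least 5 counts summed over Myh6, Myh7, Myl7, Myl2, Myl3, Tnnt2 and Ttn, and at least 50 counts of these genes per 10000 counts of the pixel. The remaining 11755 tissue pixels of the same libraries served as the comparison, each library against itself. The series held 17046 tissue pixels in 11 transcript libraries. The other 2 libraries (E10 10 µm replicate 2 and E11 10 µm replicate 1) had no pixel that met the conditions, and no pixel in them held more than 4 counts of the 7 genes together.

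Frozen embryo sections received barcodes through parallel microfluidic channels, first along one axis and then along the other, and a pixel is the square where 2 channels cross, with a count for every gene. The libraries with heart pixels came from embryonic day 10 (E10: 3 at 50 µm, 1 at 25 µm and 1 at 10 µm pixel width), embryonic day 11 (E11: 2 at 25 µm and 1 at 10 µm) and embryonic day 12 (E12: 1 at 50 µm). The labels give whole embryo as the tissue, with the stage and the pixel width, and name no strain, genotype, sex or treatment for any group. They do not say whether sections of a stage came from separate embryos, so p-values measure the spread between these sections. A pixel of 50 µm spans several cells and one of 10 µm can span parts of neighbouring cells, so a heart pixel is a small region and not a cell. Fewer cells of a type and less RNA per cell cannot be told apart in such sums.

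The heart is the first organ to work in the mouse embryo, and at these stages it is a looped tube with forming atria and ventricles. Its wall is made of beating muscle cells, lined inside by endocardium, filled with blood and covered outside by epicardium that spreads from a neighbouring tissue. Muscle cells contract through sarcomeres, in which myosin heavy and light chains pull on actin filaments under the control of troponins, when calcium is released from internal stores through the ryanodine receptor. Skeletal muscle, which forms from the somites in the same days, is built from related proteins and at first uses several of the genes that later mark the heart.

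The number of heart pixels ran from 20 (E10 50 µm replicate 1) to 439 (E10 10 µm replicate 1), with 75 and 41 in E10 50 µm replicates 2 and 3, 53 in E10 25 µm, 201 and 163 in E11 25 µm replicates 1 and 2, 285 in E11 10 µm replicate 2 and 107 in E12. Summed heart counts ran from 34273 (E10 25 µm) to 2892319 (E10 10 µm), and summed counts of the other pixels from 1529216 to 11197595. The median count of a heart pixel was below that of the other tissue pixels in 8 of 9 libraries, at 0.425 to 0.937 times their median, and at 1.22 times in E10 10 µm. All libraries use the same grid of 50 by 50 barcode pairs. Heart pixels took 1106 grid positions, of which 249 were heart in more than 1 library.

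**Figure D1:**
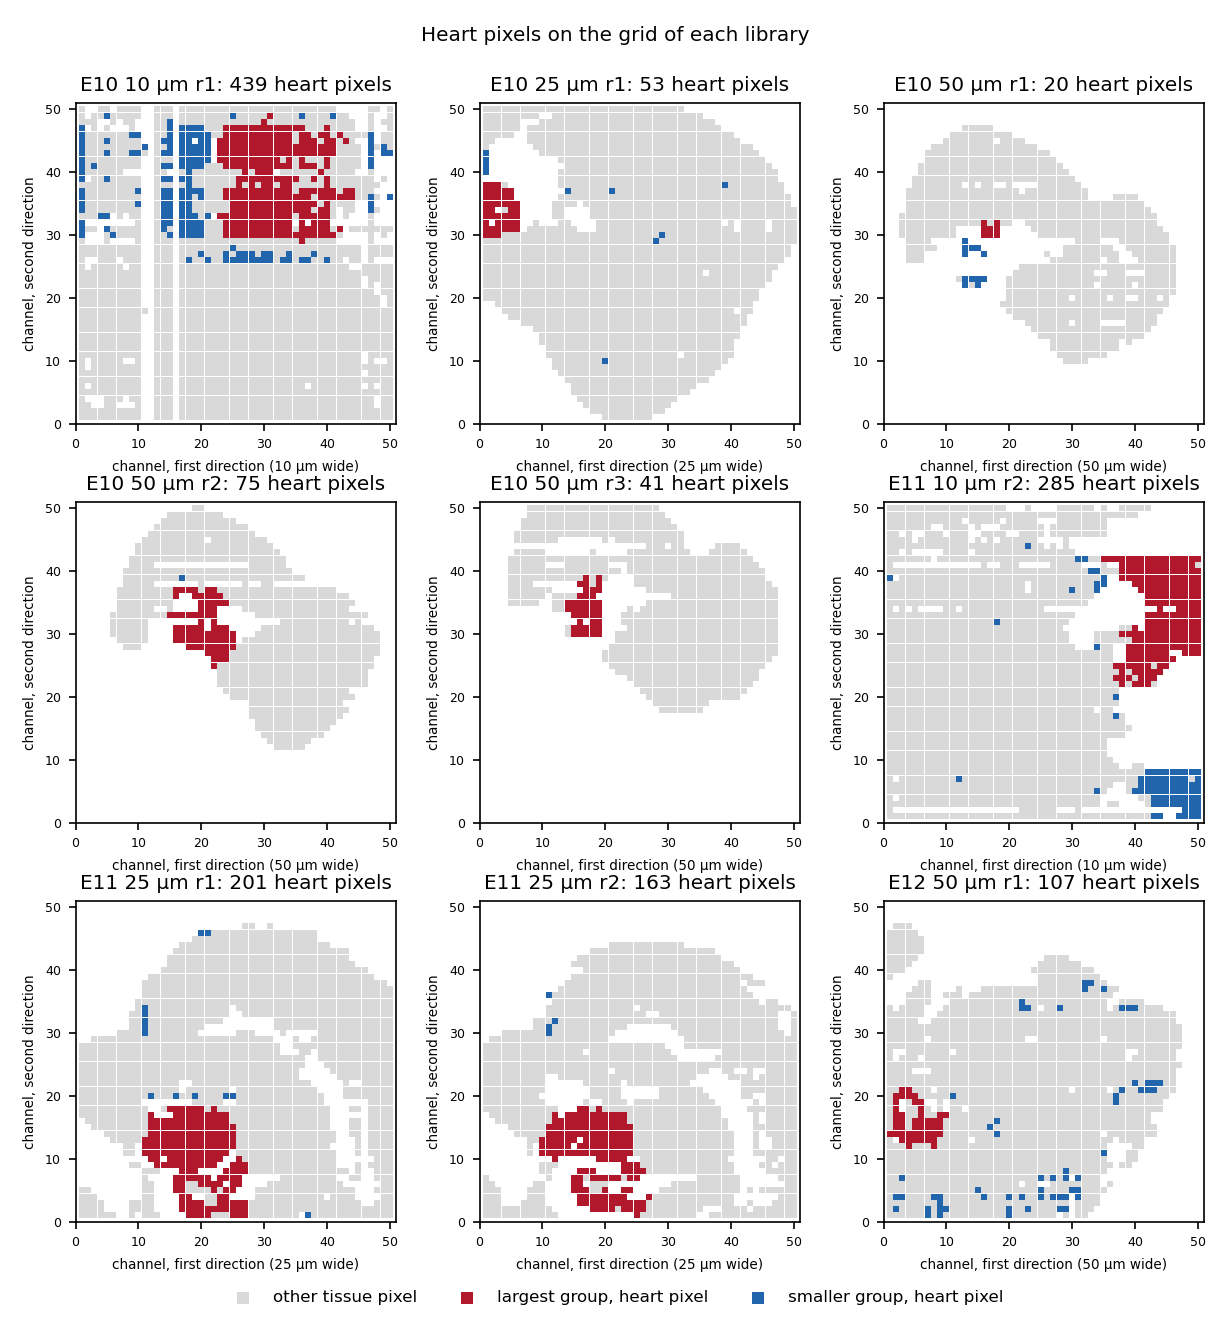
Position of heart pixels on the grid of the 9 libraries, with the channel number of each direction on the axes. Grey squares are other tissue pixels, red squares the largest touching group of heart pixels and blue squares all smaller groups. The red squares of E11 25 µm replicate 1 hold 188 of 201 heart pixels in 1 patch, in E12 60 of 107 heart pixels are blue and scattered, and in E10 10 µm 162 of 439 are blue.

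Heart pixels lay together. Of the nearest neighbours of a heart pixel that were tissue, 73.8% to 90.8% were also heart pixels in 8 libraries, and 45.3% in E12. The largest group of touching pixels held all 41 heart pixels of E10 50 µm replicate 3, 74 of 75 in replicate 2, 159 of 163 and 188 of 201 in E11 25 µm, 204 of 285 in E11 10 µm, and 47 of 107 in E12, which had 28 groups. In E10 50 µm replicate 1 it held 8 of 20, in E10 25 µm 43 of 53 and in E10 10 µm 277 of 439. Of the pixels in smaller groups, 159 of 162 in E10 10 µm and 78 of 81 in E11 10 µm lay within the channel range of the largest group in at least 1 direction. In E12 and E10 50 µm replicate 1 these were 22 of 60 and 2 of 12. The cause was not tested, so smaller groups need not be separate patches of heart. The condition on the share of counts was met narrowly by many pixels of 2 libraries only: 96 of 439 heart pixels of E10 10 µm and 25 of 107 of E12 held 50 to 60 counts of the 7 genes per 10000, while 106 and 36 other pixels there held 40 to 50 with at least 5 counts. In the other 7 libraries 0 to 6 pixels lay just inside and 1 to 9 just outside.

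The 7 genes that chose the pixels are given as a description, with no test. Together they made up 88.9 to 438 of 10000 counts in the summed heart pixels and 3.52 to 11.5 in the other pixels, with the lowest contrast in E10 10 µm (7.72-fold) and the highest in E11 25 µm replicate 1 (105-fold). Myh6 and Myh7, the alpha and beta myosin heavy chains, had medians of 23.2 and 19.5 per 10000 in heart pixels against 0.267 and 0.426 in the other pixels. Ttn, the giant spring protein titin, had a median of 75.9 per 10000 (27.6 to 94.7) against 0.798, and Tnnt2, cardiac troponin T, 34.9 (10.2 to 59.6) against 1.58. Myl7, the light chain that persists in the atria, ran from 7.18 to 114 per 10000. Myl2, the light chain of the ventricle, varied most between libraries, from 0.154 per 10000 in E12 to 61.6 in E11 25 µm replicate 1, and so its ranges in heart and other pixels overlapped (0.00491 to 2.40 in the other pixels), as did those of Myl3.

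Light chain levels differed between patches of the same section. In E11 10 µm the largest group (204 pixels) and the second group (62 pixels) did not touch. Myl7 was at 14659 counts per 1000000 (CPM) in the first and 3588 in the second, and Myl2 at 158 CPM (33 counts) and 7510 CPM (538 counts). Irx4, a transcription factor of the ventricle that was not among the selecting genes, had 1 count (4.79 CPM) in the first and 5 counts (69.8 CPM) in the second, too few to compare. Tbx5, a factor of the atria and left ventricle, was at 177 CPM (37 counts) and 83.8 CPM (6 counts). In the largest group of E12 Myl7 was at 8032 CPM and Myl2 at 40.8 CPM (6 counts), and in E11 25 µm replicates 1 and 2 both light chains were high in the largest group (Myl7 8490 and 5544 CPM, Myl2 6799 and 2966 CPM). These are patches of single sections and were not tested.

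The smaller groups of E12 and the second groups of E11 25 µm held skeletal muscle genes and few or no counts of Myl7. Myh6, Myl7, Myl2 and Ttn chose the pixels, so their levels in the largest groups do not identify the tissue independently. In E12 the 60 pixels outside the largest group met the conditions through Ttn (6167 CPM) while Myh6 was at 45.4 CPM and Myl7 at 12.4 CPM (3 counts), against 6074 and 8032 CPM in the largest group. Nppa, Nkx2-5 and Myl2 had no count there. The 13 skeletal muscle genes listed summed to 3387 CPM in these pixels and 415 CPM in the largest group, with Myh3, the embryonic skeletal myosin, at 1766 CPM against 47.6 CPM, and Mylpf, the fast skeletal light chain, at 986 CPM against 27.2 CPM. The second groups of E11 25 µm replicates 1 and 2 held 5 and 3 pixels, in which the same list summed to 7411 and 3739 CPM (165 and 98 counts) against 112 and 72.0 CPM in the largest groups, and Myl7 had 2 and 0 counts. The 8 pixels of the further groups of replicate 1 had 1 count of the list and 31 of Myl7 among 10031 counts (3090 CPM for Myl7), and the 1 further pixel of replicate 2 had none of the list and 2 of Myl7. Totals of calls and the results for skeletal muscle genes are also given with the largest groups alone. With these, Fsd2, Lmod2 and Alpk2 were too low to test in the heart comparison, as were Kcnq3 and Mitf in that of E11 with E10. Myog, the myogenin gene, had 25 counts in the smaller groups of E12 and none in its largest group.

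E10 10 µm replicate 1 stood apart in another way. Its other tissue pixels held 11.5 counts of the 7 genes per 10000, the highest of the 9 libraries, and its heart pixels 88.9, the lowest. Myh6, Myl7, Tnnt2 and Ttn had their lowest heart level in it. Totals of called genes are also given without this library. Nppa, Lmod2, Mov10l1, Abcc9 and Tnnt3 were too low to test without it, so their results in the heart comparison depend on it.

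The main question was which other transcripts accompany the selecting genes. Counts were summed over heart and over other pixels of each library and compared with edgeR's quasi-likelihood test with the library as a block, and an adjusted p (Benjamini-Hochberg over all genes tested) under 0.05 is named a call. Log2 fold changes are heart minus other, with their standard error (SE). Of 11740 genes tested besides the selecting ones, 867 were higher in heart pixels (7.39%) and 516 were lower (4.4%). The median log2 fold change of all tested genes was -0.07. The CPM of all 9 heart sums lay above all 9 other sums for 100 genes (0.852%) and below them for 4 (0.0341%). Because pixels were picked for contractile transcripts, genes that travel with those are raised by the choice itself, so these tests describe what accompanies the selecting genes and do not identify the tissue independently. Without E10 10 µm, 891 genes were higher and 716 lower. With the largest group of each library only, 885 were higher and 760 lower. Without E11 25 µm replicate 2, 626 were higher and 337 lower. Without the low-count filter the balance turned, to 848 higher and 1330 lower, and without the library as a block 384 were higher and 22 lower. Of the 867 higher genes 223 needed heart sums to pass the filter, and of the 516 lower ones 206 needed other sums.

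All 25 sarcomere genes that could be tested, of 28 listed besides the selecting ones, were higher in heart pixels, with log2 fold changes from 2.13 (Pdlim5) to 5.34 (Lmod2) and a median of 4.63. For 22 of the 25 the 9 heart sums did not overlap the 9 other sums. Of the 25, 9 would have been tested from their other sums alone, and 16 needed heart sums to pass the low-count filter, so the count and median describe those that passed and support nothing further. Actc1, cardiac alpha actin and the main thin filament protein of the embryonic heart, had 1704 to 6639 CPM in heart sums (median 3095) and 32.7 to 291 CPM (median 111) in other sums. Every heart sum was above every other sum, and the log2 fold change was 4.79 (SE 0.40, adjusted p = 8.75e-05 in edgeR, higher in 9 of 9 libraries). Myl4, the light chain of embryonic and atrial muscle, ran from 886 to 6020 CPM (median 2403) against 19.6 to 191 (median 56.1), with a log2 fold change of 5.18 (SE 0.45, edgeR adjusted p = 0.000101). Both genes had their lowest heart level in E10 10 µm and their highest at E11.

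Transcripts of troponin I and troponin C rose, while cardiac troponin T (Tnnt2) was a selecting gene and was not tested. Tnni3, the adult cardiac troponin I, had 127 to 1050 CPM in heart sums against 6.70 to 36.6. Tnni1, the slow skeletal form that the fetal heart uses, had 342 to 1744 CPM against 14.5 to 110, and Tnnc1, the calcium-binding subunit, 252 to 2131 CPM against 5.86 to 70.9. None of the 3 overlapped between heart and other sums, and their log2 fold changes were 5.08, 4.53 and 4.95. Proteins of the Z-disc and of the thick filament followed: Mybpc3, cardiac myosin-binding protein C, at 144 to 903 CPM against 3.44 to 42.1, and Actn2, the actinin that anchors thin filaments, at 113 to 613 CPM against 2.497 to 35.5. Lmod2, which lengthens thin filaments, was at 7.61 to 42.5 CPM against 0 to 0.988. Flnc and Acta1, filamin C and skeletal alpha actin, also passed the test but overlapped between the kinds of sum, and Smpx had no count in the heart sum of 1 library. Tpm1, alpha tropomyosin, which is also made outside muscle, had the second smallest change of those without overlap (log2 fold change 2.64, 125 to 716 CPM in other sums).

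Promoters of genes that rose together were examined in RefSeq sequence (GRCm38.p6), 250 bases before each annotated start, for 5 motifs of muscle or general promoters on both strands. Matches to the MEF2 consensus (MEF2 factors act with cardiac regulators at muscle genes) stood in 1.62% of the 618 promoters found for the 867 genes called higher, in 0.314% of the 8274 found for all tested genes and in 0.518% of all 27025 promoters. The CArG box, which serum response factor binds, stood in 2.91%, 1.21% and 1.399% of the same sets. For AGATAA, bound by the zinc finger factors of heart and blood, the shares were 4.37%, 5.14% and 10.3%. For CATTCC, bound by TEAD factors, they were 12.0%, 10.1% and 12.6%. For the general promoter element TATAAA they were 6.96%, 5.49% and 12.97%. No test was made on these shares, and MEF2 and CArG matches can contain TATAAA. Of the 21 called sarcomere genes with a promoter in the table, 2 held a MEF2 match, 4 a CArG match, 4 AGATAA, 6 CATTCC and 1 TATAAA. A match describes letters and is not shown to be a bound site. The 3 promoters with either match among the 20 genes of largest rise are printed 5′ to 3′ on the gene's strand, with the match in capitals, since they show the motif of each kind in its context: Mybpc3 at chr2:91117894-91118143 (plus strand, MEF2 consensus starting 90 bases before the start), Actc1 at chr2:114052876-114053125 (minus strand, CArG box 47 bases before) and Ldb3 at chr14:34588682-34588931 (minus strand, CArG box 35 bases before).
Mybpc3: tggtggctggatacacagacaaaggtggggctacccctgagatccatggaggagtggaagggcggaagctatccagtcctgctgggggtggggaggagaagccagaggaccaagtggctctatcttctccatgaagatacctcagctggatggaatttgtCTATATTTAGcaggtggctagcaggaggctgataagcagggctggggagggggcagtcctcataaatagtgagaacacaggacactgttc
Actc1: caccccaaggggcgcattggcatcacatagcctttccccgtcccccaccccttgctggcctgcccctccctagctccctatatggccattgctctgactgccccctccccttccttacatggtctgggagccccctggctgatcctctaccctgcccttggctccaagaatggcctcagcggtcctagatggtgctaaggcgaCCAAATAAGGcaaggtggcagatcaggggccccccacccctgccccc
Ldb3: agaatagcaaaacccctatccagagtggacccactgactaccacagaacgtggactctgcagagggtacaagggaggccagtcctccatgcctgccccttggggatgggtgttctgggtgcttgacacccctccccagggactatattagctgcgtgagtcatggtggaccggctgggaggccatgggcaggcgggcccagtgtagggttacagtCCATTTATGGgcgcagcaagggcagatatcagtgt

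Of the 20 genes with the largest rise, 11 belonged to the sarcomere list and all 20 were higher in 9 of 9 libraries without overlap, with log2 fold changes from 4.75 to 5.48. To be tested a gene had to reach 5.03 CPM in at least 9 of the 18 sums, and 16 of the 20 did so only with the help of heart sums, 7 of them with no other sum at that level, so their difference is partly set by the filter. Ryr2, the cardiac ryanodine receptor that releases calcium from internal stores, led them at 97.2 to 758 CPM in heart sums (median 218) against 1.79 to 15.5 (median 4.91), a log2 fold change of 5.48 (SE 0.52, edgeR adjusted p = 0.000191). Trdn, triadin, a partner of the ryanodine receptor, had 37.0 to 176 CPM against 0.576 to 4.94. Fsd2 and Trim55, the latter a sarcomere-associated ubiquitin ligase, had 15.2 to 117 and 26.6 to 215 CPM against at most 3.27 and 4.42. Mov10l1, of a family of RNA helicases, had 6.64 to 87.5 CPM against 0.0893 to 3.27, a log2 fold change of 5.23 (SE 0.43, edgeR adjusted p = 1.09e-08). Sh3bgr and Alpk2 had 103 to 425 and 11.8 to 86.8 CPM, and Pgam2, the muscle phosphoglycerate mutase, 53.2 to 720 CPM against 3.36 to 13.9.

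**Figure D2:**
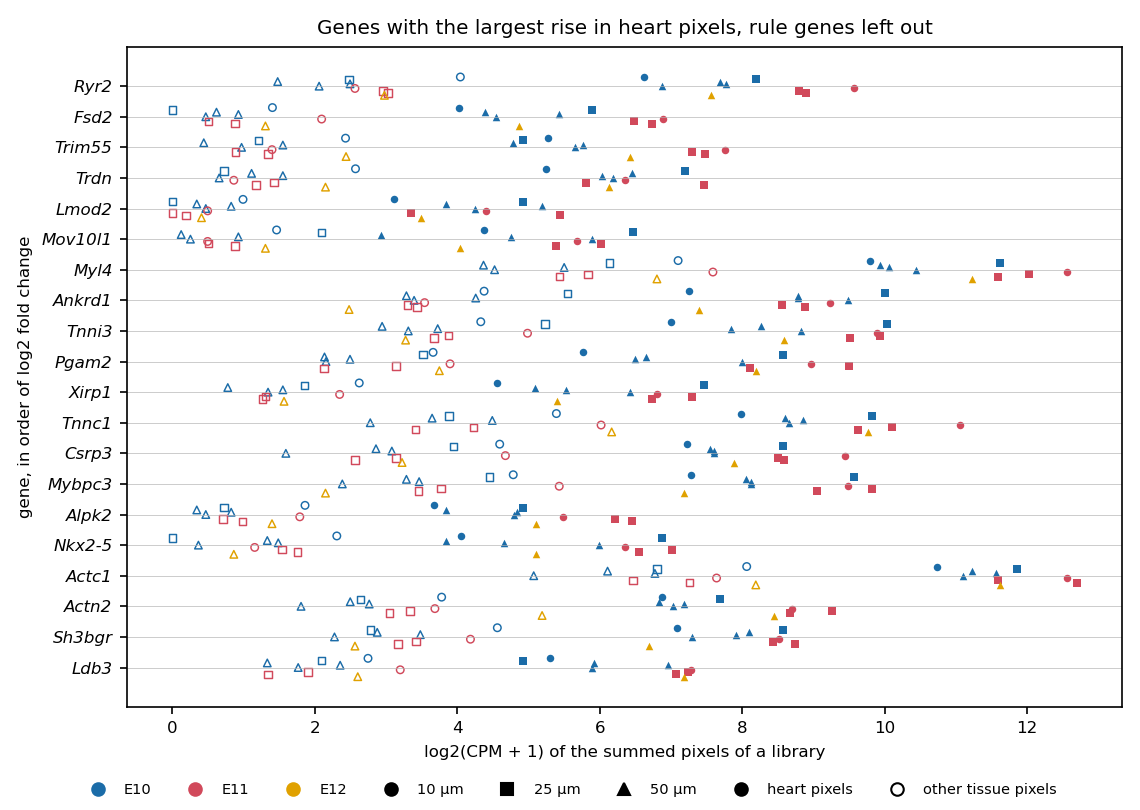
Levels of the 20 genes with the largest rise, as log2(CPM + 1) of the summed heart pixels (filled) and other tissue pixels (open) of each library, with colour for stage and shape for pixel width. For each gene the 9 filled points lie to the right of the 9 open points, for example at 1704 to 6639 CPM against 32.7 to 291 CPM for Actc1.

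Among calcium handling, channel and gap junction genes 11 of 13 tested rose (19 listed, median log2 fold change 2.42) and none fell. Members of this and the following lists could enter the test through the kind of sum where they were high, as Ryr2, Trdn and Pln did here. Counts and medians of these lists therefore describe the genes that passed the low-count filter and support nothing further. Atp2a2, the calcium pump that refills the stores, had 290 to 1490 CPM in heart sums against 129 to 196, without overlap (log2 fold change 1.81, SE 0.28, edgeR adjusted p = 0.0027). Pln, phospholamban, the inhibitor of that pump, had 17.97 to 279 CPM against 0.327 to 20.2 (log2 fold change 4.63). Slc8a1, the sodium-calcium exchanger, had 0 to 238 CPM against 1.96 to 9.33, with no count in the heart sum of E10 25 µm. Gja5, connexin 40 of atria and conduction tissue, rose (log2 fold change 1.65, SE 0.29), while Gja1, connexin 43, was at 39.9 to 233 CPM against 44.2 to 115 and was not called (0.32, SE 0.15, edgeR adjusted p = 0.175).

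Of 19 cardiac transcription factors tested 11 rose and none fell (21 listed, median log2 fold change 1.78). Nkx2-5, the homeodomain factor that marks cardiac progenitors and muscle, had 13.3 to 128 CPM in heart sums (2 to 50 counts) against 0 to 3.95, without overlap, a log2 fold change of 4.90 (SE 0.64, edgeR adjusted p = 0.00065). Smyd1, a muscle methyltransferase, rose by 4.70, and Tbx20, Hopx, Myocd and Tbx5, all needed for cardiac development, by 3.82, 3.46, 3.27 and 3.04 on the log2 scale. Mef2c and Mef2a rose by 1.75 and 1.07, with 22.2 to 142 and 28.8 to 61.9 CPM in other pixels. Gata4 (2.59, SE 0.68, edgeR adjusted p = 0.0405) and Gata6 (2.66, SE 0.71, adjusted p = 0.0468), zinc finger factors shared with gut, liver and mesenchyme, passed narrowly. Leaving out any of 6 libraries for Gata4 or of 8 for Gata6 raised the adjusted p above 0.05, with log2 fold changes of 2.34 to 2.70 and 2.31 to 2.92 in those fits.

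Of 12 natriuretic peptide and heart signal genes tested 5 rose and none fell (16 listed, median 0.95). Nppa, atrial natriuretic peptide, which working muscle of the embryonic chambers secretes, had 0, 121, 26.9, 379 and 62.6 CPM in the heart sums of E10 50 µm replicates 1 to 3, E10 25 µm and E10 10 µm, 479, 327 and 107 CPM in E11 25 µm replicates 1 and 2 and E11 10 µm, and 216 CPM in E12. It reached at most 10.8 CPM in other pixels. Its log2 fold change was 5.12 (SE 0.55, edgeR adjusted p = 0.000358) and 8 of 9 libraries were higher. The library at 0 had 150494 heart counts, and 3 counts would be the limit a 0 allows. Bmp7, a bone morphogenetic protein, had 26.6 to 91.5 CPM against 13.1 to 23.2 without overlap. The neuregulin receptors Erbb4 and Erbb2 rose by 2.44 and 0.95, and Corin, the protease that activates natriuretic peptide, by 2.25. Bmp4 and Tgfb2 did not pass (0.96 and 0.67, adjusted p = 0.25 and 0.43 in edgeR).

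Energy genes shifted with smaller steps. Of 15 muscle energy genes tested 13 rose (20 listed, median 0.93): Cox6a2 and Cox7a1, muscle subunits of cytochrome oxidase, had 29.2 to 262 and 24.5 to 220 CPM in heart sums against 0.960 to 9.001 and 2.501 to 8.59, and Fabp3, the heart fatty acid carrier, 53.4 to 233 against 5.18 to 20.9. Genes of the general mitochondrial machinery moved by less than 1 on the log2 scale, with Idh2 at 0.93 (SE 0.11, edgeR adjusted p = 2.96e-07), Slc25a4, the ADP/ATP carrier, at 0.84, Mdh2 at 0.50 and Cs, citrate synthase, at 0.44. Ppargc1a, the coactivator of mitochondrial genes, rose by 2.34. Of 11 glycolysis and hypoxia genes 6 rose, with Aldoa at 0.99 and Gapdh at 0.43, while Pkm, Eno1 and Ldha were not called (-0.04, 0.17 and 0.20).

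Smooth muscle genes, which early heart muscle also expresses, rose in 4 of 6 tested: Acta2, 358 to 1755 CPM against 24.6 to 221, Cnn1, 40.8 to 299 against 2.11 to 22.5, and Myl9, 271 to 1735 against 56.2 to 267, without overlap, and Tagln with overlap (log2 fold change 2.16). Of 15 endothelial and endocardial genes 12 rose, by 0.54 (Egfl7) to 1.64 (Tek), and none fell (median 0.96). Npr3, a receptor found on endocardium, had 13.4 to 88.7 CPM against 9.12 to 41.4 (1.41, SE 0.20, edgeR adjusted p = 4.65e-06), and Nfatc1, a factor of the endocardium, 0 to 35.8 against 3.27 to 23.9. The summed list was at 388 to 985 CPM in heart and 269 to 495 in other pixels, higher in all libraries but E12. With limma on pixel means in place of edgeR on sums, 2 of 15 were called. Of 6 epicardial genes 3 rose (Tbx18, Upk3b and Krt19, by 1.01, 2.80 and 1.54), and Wt1 did not (0.76, adjusted p = 0.666 in edgeR). Of 11 cushion and valve genes 1 rose, Vcan, the proteoglycan versican of the cardiac jelly (446 to 1787 CPM against 182 to 834, log2 fold change 1.07, SE 0.12, edgeR adjusted p = 4.96e-06).

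**Figure D3:**
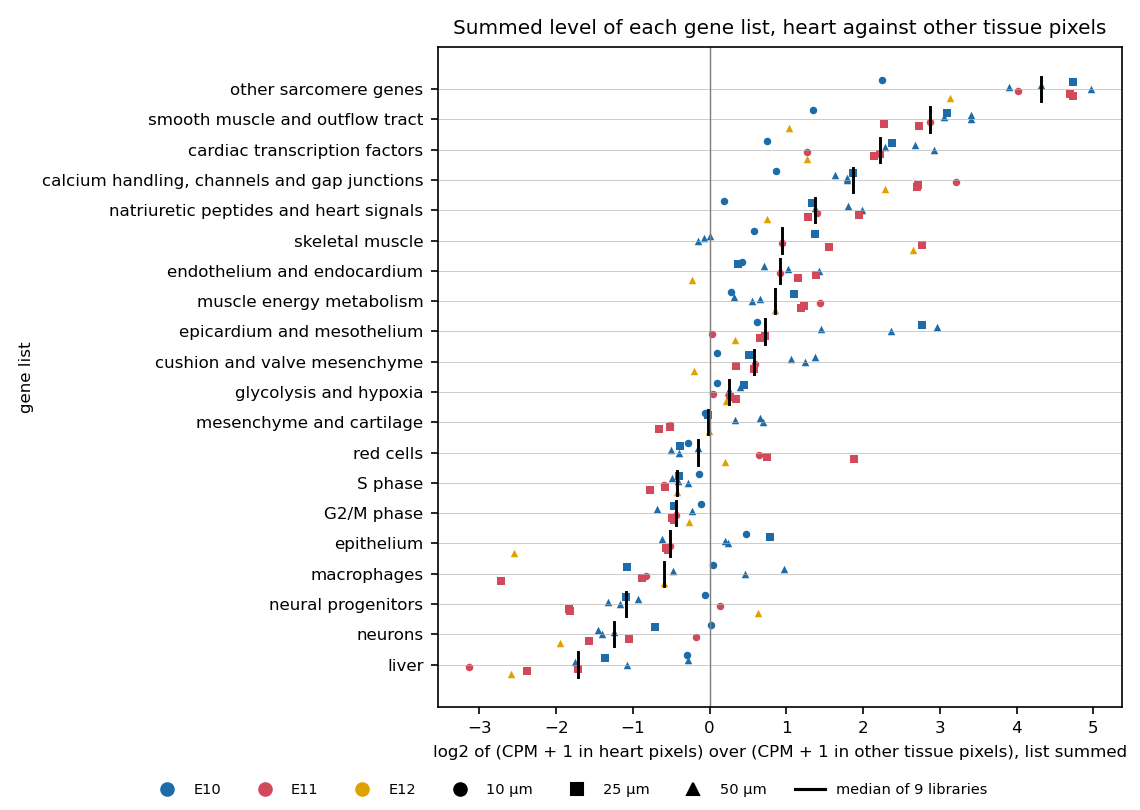
Summed CPM of each gene list in heart over other tissue pixels, on a log2 scale with 1 added to each CPM, for the 9 libraries (points) and their median (bar). Contractile, calcium and transcription factor lists lie right of 0 in all 9 libraries, cell cycle and liver lists left of 0 in all 9, and the red cell list is right of 0 at E11 and E12 and left of 0 at E10.

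Transcripts of blood, connective tissue and other cells in the heart pixels were as follows. The 10 red cell genes had 0 calls in edgeR, DESeq2 and limma and 0 at an unadjusted p under 0.05, and summed to 12693 to 102285 CPM in heart and 12593 to 89075 in other pixels, with heart above other in the 3 E11 libraries and E12. In E12 the largest group was at 224546 CPM and the smaller groups at 28130 CPM. The globin genes include near-identical copies whose reads cannot be told apart. The macrophage, epithelium and mesenchyme lists had 0 calls in edgeR, DESeq2 and limma among 5, 4 and 8 genes tested, and 1, 0 and 1 at an unadjusted p under 0.05. Of the defining markers, the 13 skeletal muscle genes summed to 43.9 to 146 CPM in 6 heart sums (29.1 to 119 in their other sums) and to 607, 249 and 2265 CPM in E11 25 µm replicates 1 and 2 and E12. Myod1, Myog, Myf5 and Myf6 were among the 9 of 13 too low to test, and Tnnt1 and Tnnt3 were called higher, as was Mylpf outside the list. Without the smaller groups the log2 fold change of Mylpf was 1.08 (adjusted p = 0.231 in edgeR), Tnnt1 kept 2.63 (adjusted p = 6.17e-12) and Tnnt3 was too low to test. With the largest groups alone 24 sarcomere genes, 14 transcription factors and 11 calcium and channel genes were higher.

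Most listed neuronal genes were lower. Of 8 neuronal genes 7 fell and of 7 neural progenitor genes 4 fell, with median log2 fold changes of -0.99 and -1.24. Not every library went this way: the summed progenitor list was higher in heart pixels of E12 (567 against 365 CPM) and E11 10 µm (131 against 119 CPM), and the neuronal list in E10 10 µm (749 against 739 CPM). The E12 heart sum includes the smaller groups of that library, which held skeletal muscle genes. Pax6, a factor of forebrain, eye and spinal cord, had 0 to 58.2 CPM in heart sums against 2.45 to 256 (log2 fold change -2.81, SE 0.27, edgeR adjusted p = 1.56e-06), and Tubb3, the neuronal tubulin, 15.4 to 197 against 27.8 to 506. Among the 15 genes with the largest drop were Hoxb9, a posterior patterning gene (0 to 26.6 CPM against 0.654 to 153, log2 fold change -2.12, SE 0.27), Ttr, transthyretin of liver and choroid plexus (1.38 to 86.4 against 3.73 to 281), Ptprz1, Fabp7, Pou3f3, Pou3f2 and Lhx2 of neural progenitors and Pax3 of neural tube and somites. All 15 overlapped between heart and other sums, since levels in other pixels differed widely between sections. Afp and Apoa2, liver genes, were also called lower (-2.15 and -2.29), among 3 of 4 liver genes tested. DESeq2 called 1 of the 4, and gave Afp a log2 fold change of 0.69.

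Proliferation transcripts were lower as well. Of 10 S phase genes 5 fell and of 12 G2/M genes 2 fell, and no gene of either list rose in edgeR or DESeq2 (medians -0.38 and -0.31). With limma on pixel means 1 and 2 were called. Rrm2, a ribonucleotide reductase subunit, had 53.7 to 204 CPM against 94.4 to 283 (log2 fold change -0.70, SE 0.12, edgeR adjusted p = 0.000115, lower in 9 of 9 libraries), Mcm7 of the replicative helicase -0.43, Mki67 -0.39 and Top2a -0.37. The summed lists were lower in heart pixels of all 9 libraries, 905 to 1405 against 1270 to 1954 CPM for S phase and 1573 to 3175 against 2206 to 3668 CPM for G2/M. The lower depth of heart pixels moved with this in 8 of the 9 libraries. In E10 10 µm, where heart pixels were deeper, the drops were the smallest of the 9 (log2 ratios -0.14 for S phase and -0.12 for G2/M). The part of depth was not tested.

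Levels around the heart pixels fell off over a few grid steps. The 28 listed sarcomere genes, which did not choose the pixels, summed to 59.7 to 274 per 10000 counts in heart pixels (median 119), 10.6 to 37.3 (median 21.7) in pixels 1 step away, 5.85 to 22.5 (median 13.4) at 2 steps, 6.29 to 19.8 (median 7.85) at 3 to 4 steps and 2.60 to 14.7 (median 7.17) at 5 or more. Every library was lower at 1 step than in its heart pixels and lower at 2 steps than at 1. With other pixels limited to those more than 2 steps away, 854 genes were higher and 533 lower. The list of natriuretic peptides and heart signals had medians of 7.64, 3.99 and 3.79 at 0, 1 and 2 steps. Neuronal genes were lowest in or near the heart pixels of E10 50 µm replicates 1 to 3 (9.77, 8.44 and 11.5 per 10000 in heart, 27.9, 19.6 and 31.0 at 5 or more steps), and highest 2 steps away in E10 10 µm (17.9 against 7.49 in heart and 4.12 at 5 or more).

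**Figure D4:**
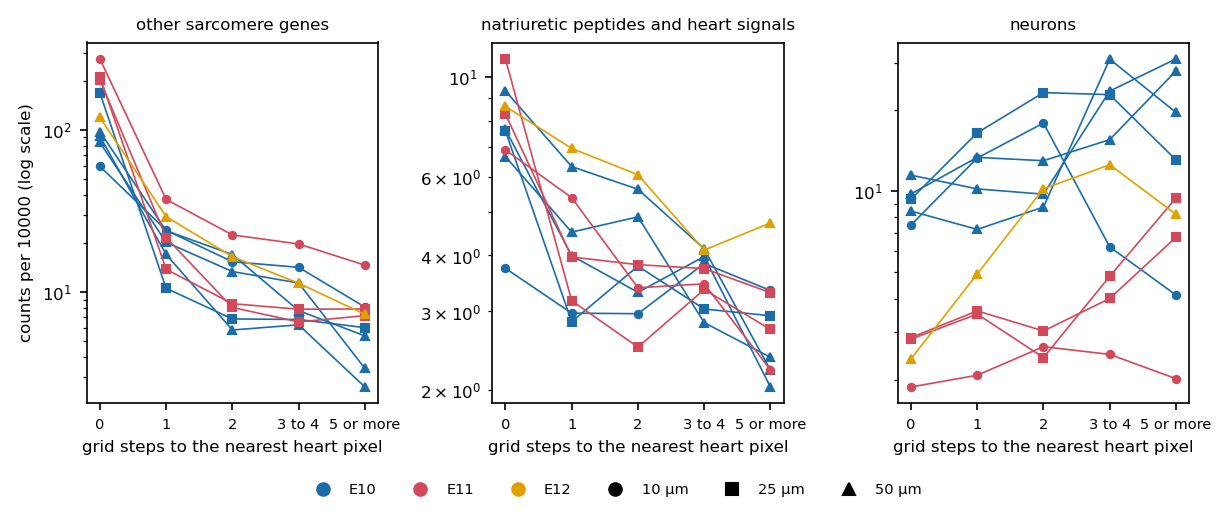
Counts per 10000 (log scale) of 3 gene lists in heart pixels (0) and in other tissue pixels by distance in grid steps, 1 line per library. Sarcomere genes outside the rule drop from 59.7 to 274 in heart pixels to 10.6 to 37.3 at 1 step in each library, whereas neuronal genes show no common course.

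Whether the difference between heart and other pixels changed with stage was tested as an interaction with the library as a block. E11 and E12 were each set against the same 5 E10 libraries, so the 2 comparisons share their controls. Pixel width differs between the stages: E12 shares 50 µm with 3 E10 libraries, and E11 shares 25 µm and 10 µm with 1 E10 library each. For E11, 178 genes had a larger heart difference than at E10 (1.52%) and 71 a smaller one (0.605%). The total of 249 was 498 with pixel width in the model, 141 in DESeq2, and fell to 100 when E11 25 µm replicate 2 was left out and to 155 when replicate 1 was.

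The difference between heart and other pixels was larger at E11 for 2 of 13 calcium and channel genes, 4 of 15 muscle energy genes and 2 of 25 sarcomere genes, and smaller for none of them. The 7 selecting genes made up 438, 313 and 405 per 10000 in heart sums of E11 (25 µm replicates 1 and 2, 10 µm). At E10 they made up 139, 175, 131, 331 and 88.9 (50 µm replicates 1 to 3, 25 µm, 10 µm). A larger muscle share of the chosen pixels and a change of these muscle genes with stage cannot be told apart. Atp2a2 was at 485, 414, 484, 438 and 290 CPM in heart sums of E10 (50 µm replicates 1 to 3, 25 µm, 10 µm) and at 564, 911 and 1493 CPM at E11 (25 µm replicates 1 and 2, 10 µm), while other pixels stayed between 129 and 196 CPM. Each E11 heart value was above each E10 value, and the difference of log2 fold changes was 1.46 (SE 0.20, edgeR adjusted p = 8.19e-07). Fabp3 was at 59.8, 53.4, 94.1, 233 and 62.6 CPM at E10 and 165, 194 and 161 at E11, with E10 25 µm (8 counts) above all of E11 (2.53, SE 0.36, adjusted p = 6.75e-07 in edgeR). Slc8a1 and Nebl, nebulette of the Z-disc, gave 2.23 and 2.38, and Erbb4, Cox7a1 and Slc25a4 gave 2.08, 1.60 and 0.88.

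Of 19 transcription factors 1 (Hopx) had a larger difference at E11. The difference was smaller at E11 for 3 of the 19 (Gata4, Gata5 and Gata6) and for Wt1, and the level of these 3 and of Wt1 in other pixels was higher at E11. Gata6 was at 25.6 to 233 CPM in E10 hearts and 48.8 to 121 in E11 hearts, which overlap, but at 2.70 to 5.89 CPM in other pixels of E10 and 23.6, 37.6 and 105 at E11 (difference -3.58, SE 0.50, edgeR adjusted p = 0.000409). Gata4 and Gata5 did likewise (-3.09 and -4.04), and Wt1, a factor of epicardium, kidney and gonad, was at 0.654 to 2.83 CPM in other pixels of E10 and 21.5, 28.9 and 112 at E11 (-3.88, SE 0.59, adjusted p = 2.09e-05 in edgeR), with heart sums of 4.15 to 49.3 and 21.3 to 30.2 CPM. Liver transcripts in other pixels moved with them: the liver list summed to 8.68 to 138 CPM in other pixels of E10 and 1259, 1657 and 4192 at E11, and Alb was among the called genes (-5.72). Their part in these results was not tested. Sox9, a factor of cushions and cartilage, was at 117 to 296 CPM in heart sums of E10 and 6.71 to 31.4 at E11, without overlap (-2.40, SE 0.35, edgeR adjusted p = 1.34e-06). Rspo3 and Zcchc18 had 100 and 77 counts in heart pixels of E10 (25.5 and 19.6 CPM of the pooled counts) and 0 of 1167168 counts at E11, where 0 allows up to 2.57 CPM, and Piezo2 had 100 and 2 counts. Of the 3918841 pooled E10 counts 2892319 came from E10 10 µm, so the pooled CPM mostly describe that section. In E12 Rspo3, Zcchc18 and Piezo2 had 4, 3 and 32 counts (10.3, 7.70 and 82.2 CPM).

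Of 10 red cell genes 4 (Hba-x, Hbb-bh1, Hbb-bt and Alas2) had a larger heart difference at E11: the list was lower in heart than in other pixels in all 5 E10 libraries and higher in all 3 of E11 (33043, 46567 and 32687 CPM against 19746, 12593 and 20860). Of 8 mesenchyme genes 4 (Col1a2, Prrx1, Pdgfra and Dcn) had a smaller one. Among the genes with the largest differences Tmem163, Kcnq3, Mitf and Abcc9, the last a subunit of the muscle potassium channel gated by ATP, had means of 24.4, 20.3, 25.7 and 58.9 CPM over the 3 E11 heart sums (9.15 to 43.6, 6.10 to 43.6, 18.3 to 38.8 and 42.7 to 90.5) and differences of 4.27, 3.88, 3.82 and 3.81. Mylpf had 36.9 to 207 CPM in E11 hearts and a difference of 3.63, and lost its call with the largest groups alone (1.75, adjusted p = 0.106 in edgeR).

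**Figure D5:**
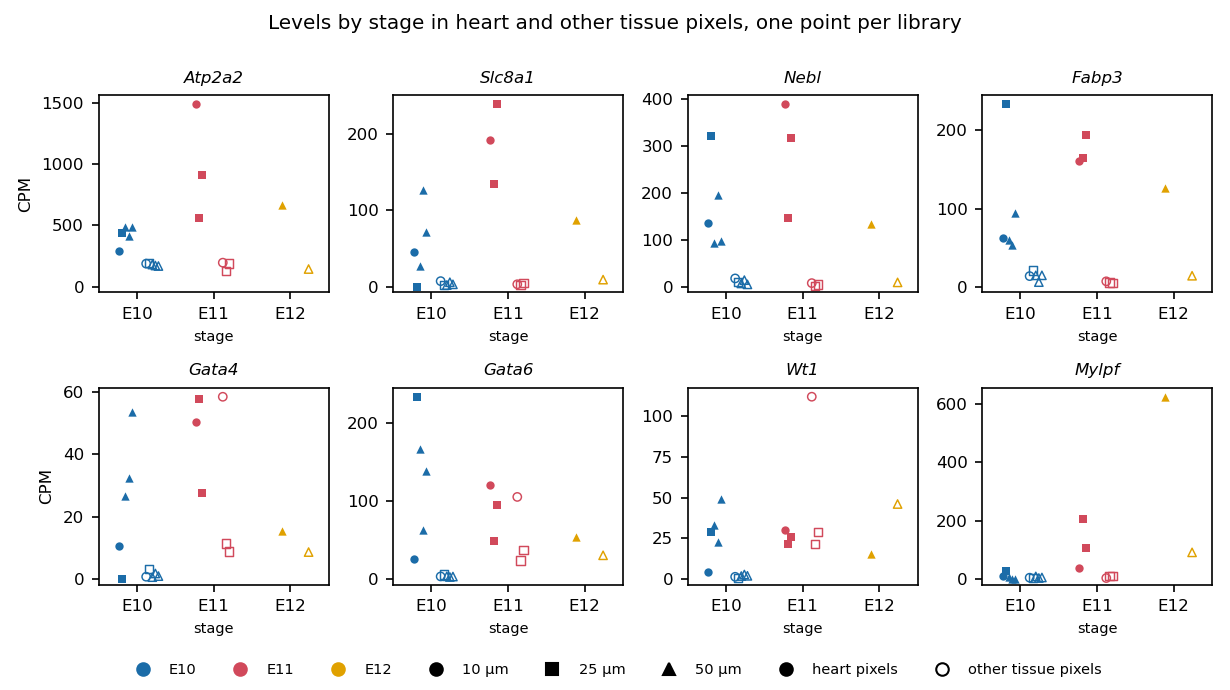
CPM of 8 genes in heart sums (filled) and other tissue sums (open) by stage, 1 point per library, with shape for pixel width. Atp2a2 is higher in each E11 heart sum than in each E10 heart sum, Gata4, Gata6 and Wt1 are higher in other pixels of E11 than of E10, and Mylpf is highest in the E12 heart sum at 624 CPM.

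For E12, a single library assumed to vary like the rest, 7 genes had a larger heart difference than at E10 (0.0596%) and 5 a smaller one (0.0426%). The larger ones, Pax7, Cdh4, Zic4, Epha3 and Mylpf among them, had 38.5, 87.3, 38.5, 395 and 624 CPM in the E12 heart sum, and are known from muscle progenitors (Pax7), the nervous system (Cdh4 and Zic4) and skeletal muscle (Mylpf). With only the largest group of E12, 14 genes were called, of which 1 (Alb) was among the former 12. Epha3 then had a difference of 0.37 in place of 3.06 and Zic4 0.85 in place of 3.18, and Pax7, Cdh4 and Mylpf turned to -5.39, -8.01 and -1.72, where Pax7 and Cdh4 depend on sums near 0. The total of 12 was 134 without E10 10 µm, 28 without E11 10 µm, 20 without E10 50 µm replicate 3 or E11 25 µm replicate 2, and 7 without E10 25 µm.

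Antibody tags were counted in 3 of the E10 sections with heart pixels (50 µm replicates 1 and 3 and 25 µm), as 22 antibodies to surface proteins. Heart pixels held 59619 to 107328 antibody counts per section and other pixels 2577297 to 4716215. Of the 22, 1 was called higher (4.55%) and 0 lower, with 2 lower at an unadjusted p under 0.05 (CD117-KIT and CD201-EPCR): CD63, a protein of vesicles and lysosomes, took 4.81%, 8.05% and 11.7% of antibody counts in heart pixels of 50 µm replicates 1 and 3 and 25 µm, against 4.41%, 5.87% and 10.9% in other pixels (log2 fold change 0.41, SE 0.04, edgeR adjusted p = 0.00879, 3 of 3 sections). That call was lost without either 50 µm section (adjusted p = 0.248 and 0.694) while without the 25 µm section 8 antibodies were called, CD63 at 0.0426 in edgeR. Scaled to total antibody counts alone, CD63 had an adjusted p of 0.386 in edgeR. With that scaling CD117-KIT, CD326-Ep-CAM, CD304-NPR1 and P2RY12 were called lower and no antibody higher, so the direction of the calls depends on the scaling. The endothelial antigens CD102-ICAM2 and PanendothelialCellAntigen took 14.2% and 12.98% in heart pixels of the 25 µm section against 5.95% and 5.55% elsewhere in it, and 6.19% and 2.72% against 6.16% and 3.18% in 50 µm replicate 1. In 50 µm replicate 3 they took 6.76% and 2.02% against 6.14% and 1.90%, and neither was called (adjusted p = 0.37 for both in edgeR). CD117-KIT was lower in 3 of 3 sections (4.61%, 6.24% and 3.93% against 6.63%, 7.94% and 5.51%) with an adjusted p of 0.248 in edgeR. Its adjusted p in edgeR was 2.00e-11 with total counts alone and 1.73e-11 without the 25 µm section. None of the 22 antibodies is directed to a sarcomere protein.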

How the data were processed

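The deposited tables hold whole-number counts of transcripts per gene and pixel, made by the authors from their reads, and for 3 of these sections counts of antibody tags. CASAVA 1.8.2 and GRCh38, a human build, are named in the submitters' processing notes without a role. The aligner, the counting and the build behind the mouse counts are not given in the sources used here. Members and gene lists were chosen with earlier results of these data known. Raw counts were summed over heart and over other tissue pixels per library. CPM are counts per 1000000 of that sum. Genes passing edgeR's low-count filter (11747, of which 7 chose the pixels) were scaled by TMM and tested two-sided with edgeR 4.0.16 (R 4.3.3) quasi-likelihood, with the library as a block (8 residual degrees of freedom). Stage differences were tested as an interaction with the same block (6 degrees of freedom). P-values were adjusted by Benjamini-Hochberg over all genes tested. Genes were named by rule: the 20 largest rises and 15 largest drops among called genes that moved one way in every library with a count and had a mean of at least 20 CPM in the higher kind of sum (Gm and Rik symbols left out), the called and the 4 most abundant genes of each list, and 5 per direction in each stage comparison. Irx4, Mylpf in the heart comparison, Myog, Myh3 and single genes of short call lists were chosen after their values were seen. DESeq2 1.42.0 and limma 3.58.1 served as alternatives. On simulated counts of the first comparison (11747 genes, 200 changed), edgeR recovered 100% of 4-fold and 42% of 2-fold rises, and 38% and 84% of 0.5-fold and 0.25-fold changes, with 8 false calls of 140. The simulation gave all genes 1 dispersion (spread between sums), larger than the common value of 0.0338 fitted to the data. It used only genes that had passed the filter, so these shares are not the power of the comparison itself.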

Additional observations from a re-analysis of the deposited data

Results flagged for a closer look

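Extreme values were looked for in 59 quantities over the 9 libraries, and 5 held a library far from the rest, where chance flags about 1 in 20. The share of tissue neighbours of heart pixels that were heart pixels was 45.3% in E12, with the next library at 73.8%. The log2 ratio of the summed epithelium list was -2.55 in E12, with the next library at -0.63. The log2 ratios of heart to other sums were lowest in E10 10 µm for Myl4 (2.71, next 4.56), Xirp1 (2.11, next 4.42) and Sh3bgr (2.58, next 4.47).

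The heart difference itself differed between E11 and E10, by the interaction in edgeR, with adjusted p-values of 1.21e-05 for Tmem163, 0.000788 for Kcnq3, 0.00151 for Mitf, 1.57e-05 for Abcc9, 4.63e-07 for Mylpf, 0.00201 for Rspo3, 0.00132 for Zcchc18, 0.00099 for Alb, 2.42e-06 for Gata5 and 0.000902 for Piezo2. Between E12 and E10, which share the same E10 libraries with the former comparison, edgeR gave 0.00229 for Pax7, 0.00200 for Cdh4, 0.0256 for Zic4, 3.1e-08 for Epha3, 0.0131 for Mylpf, 0.00171 for Alb, 0.00211 for Wt1, 0.0151 for Gata5, 0.0396 for Trf and 0.0312 for Tfrc. Of the E12 genes, Alb remained called with the largest E12 group alone.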

How the results depend on the processing

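Against 867 higher and 516 lower genes in heart pixels, 384 and 22 were called without the library block, 380 and 387 with limma on pixel means (median log2 fold change of all genes -0.34, against -0.07), and 848 and 1330 without the low-count filter. Leaving out 1 library gave 626 to 891 higher and 337 to 716 lower. Against 249 stage calls at E11, DESeq2 gave 141, pixel width in the model 498, a share of at least 100 per 10000 gave 154, and leaving out 1 library 100 to 291. Against 12 at E12, DESeq2 gave 7, no filter 43, pixel width 162, the largest group of each library (added after seeing the data, as was the largest E12 group) 20, and leaving out 1 library 7 to 134. Of 22 antibodies 1 was called (higher), 4 with total counts alone (all lower), 0 at 100 per 10000 and 0 to 8 without 1 section. Signs reversed for Pecam1 (-0.072, limma), Afp (0.69, DESeq2) and, at E12, Mylpf (-2.01 with the largest group of each library and -1.72 with that of E12), Cdh4 (-7.37 and -8.01) and Pax7 (-5.39 with that of E12). The causes were not tested. Of 134 named and called genes 68 kept their call under every alternative that gave them an adjusted p. Alternatives in which a gene was too low to test were not counted for it. Heart counts of 34273 in E10 25 µm limit what low genes show there. All 11 libraries together could not be run, as 2 held no heart pixel.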
